A study of Mus musculus with 8 samples.

Results

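Macrophage and leukocyte marker genes were examined in the chromatin accessibility profile of mouse brown adipose tissue (BAT) after cold exposure. The 9 genes were Spi1, Ptprc, Csf1r, Adgre1, Itgam, Mrc1, Cd68, Lyz2 and Cd3e, of 21000 genes with a curated RefSeq mRNA on chromosomes 1 to 19, X and Y. A summit, the point of highest signal of a peak of the assay for transposase-accessible chromatin (ATAC-seq), was taken as a summit of a marker gene when it lay between the ends of the gene or no more than 50 kb from a transcription start site (TSS) of one of its mRNAs. By this rule 29 of the 32173 summits of the deposited list belonged to the 9 genes.

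The libraries came from nuclei of whole, frozen BAT of 2 WT and 2 Dot1L-BKO mice, each mouse processed on its own. All mice were 12 weeks old, ate chow and were kept at 4 °C for 4 hr before the tissue was taken. WT were Dot1l f/f mice without Cre, and the Dot1L-BKO mice carried the floxed Dot1l alleles and Ucp1-Cre. The Ucp1 promoter drives Cre in Ucp1+ cells, so leukocytes of the knockout tissue keep Dot1l, the histone H3K79 methyltransferase. The nuclei were not sorted by cell type. The list was made from the 4 libraries together, named as WT against Dot1L-BKO. Which libraries served as the control of the peak caller is not known here. If it was the Dot1L-BKO libraries, a summit marks signal above that of the knockout, and a region equally open in both genotypes is not listed, so the absence of a summit is not a measure of closed chromatin. The list holds no value per library, so no replicate error, no read depth and no comparison between the genotypes could be had, and all values below describe the list as a whole. A score is the −log10 of the q-value of the peak caller, so a higher score means stronger evidence for a peak over the reference used, which is not known here. It is not a measure of peak height.

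Leukocytes arise from blood-forming cells. Macrophages are the phagocytes among them that settle in the stroma of adipose tissue, between the adipocytes, where they clear dying cells and lipid and answer to inflammatory and sympathetic signals. Their identity is set by PU.1, the product of Spi1, an ETS family transcription factor that binds purine-rich sites in myeloid promoters and enhancers. Myeloid promoters of this kind often lack a TATA box and a CpG island and carry ETS sites close to the TSS. Open chromatin at such a gene in a whole tissue can come from the cells that use it, and in a mixture of nuclei fewer cells of a type and less open chromatin per cell cannot be told apart.

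Few of the 9 genes had a summit of their own. A summit within 1 kb of a TSS, called a promoter summit here, was found at 2 of 9 genes, Cd68 and Spi1 (22.2%, 95% exact binomial interval 2.81 to 60.0%), beside 45.2% of all genes. The other 7 genes, Ptprc, Adgre1, Csf1r, Itgam, Mrc1, Cd3e and Lyz2, had none. Summits by the wider rule were present at 4 of 9 genes (44.4%, 13.7 to 78.8%), beside 72.5% of all genes. Summits inside the gene body were present at 2 of 9, beside 39.7% of all genes. None of the 9 had a promoter summit with a score of at least 10, which 23.5% of all genes had. Intervals cover the counting of 9 genes only, and the background counts include the 9 genes.

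Sequences are shown for the 3 promoter summits of Cd68 and Spi1, the only promoter summits among the 9 genes, and for the highest intronic summit of Spi1, whose nearest TSS is that of Mybpc3. They are from the plus strand of the RefSeq copy of GRCm38, which is mm10, 100 bases to each side of the summit unless an annotated untranslated stretch ended the window earlier. Capitals mark matches on either strand to the AP-1 letters TGANTCA in Cd68 and to the SP/KLF letters GGGCGG in Spi1.
Cd68 promoter summit, chr11:69666184-69666384: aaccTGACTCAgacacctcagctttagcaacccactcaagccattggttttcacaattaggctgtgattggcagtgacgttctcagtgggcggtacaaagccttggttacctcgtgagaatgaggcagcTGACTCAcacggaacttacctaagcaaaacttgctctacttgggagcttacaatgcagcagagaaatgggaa
Spi1 summit in intron 1 after the upstream TSS, chr2:91082726-91082926: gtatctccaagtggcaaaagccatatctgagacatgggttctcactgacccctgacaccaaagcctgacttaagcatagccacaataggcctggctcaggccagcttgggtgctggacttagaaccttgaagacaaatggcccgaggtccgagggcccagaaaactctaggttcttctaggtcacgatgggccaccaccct
Spi1 promoter summit after the main TSS, chr2:91096949-91097096: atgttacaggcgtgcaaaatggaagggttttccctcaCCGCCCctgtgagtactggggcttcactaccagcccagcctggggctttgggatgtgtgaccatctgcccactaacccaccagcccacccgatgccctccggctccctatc
Spi1 summit in intron 2, chr2:91109922-91110122: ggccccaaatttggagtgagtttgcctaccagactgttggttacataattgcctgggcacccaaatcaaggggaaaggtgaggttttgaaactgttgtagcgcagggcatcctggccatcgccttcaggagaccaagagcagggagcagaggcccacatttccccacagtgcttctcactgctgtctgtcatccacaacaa
The Cd68 window held 2 AP-1 matches, on a stretch upstream of the TSS of this minus-strand gene. AP-1 letters were present in 6.40% of the windows around all summits. Neither the PU.1 letters GAGGAAGT nor the shorter ETS core GGAAGT were found in these 4 windows, and the window after the main TSS of Spi1 held 1 SP/KLF match. The Cd68 window also held SP/KLF letters, left in lower case.

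The 250 bases upstream of 4 marker genes without a promoter summit are shown for comparison, read in the direction of transcription from the same build and ending at the base before the TSS. They were chosen because they hold the ETS core, which is in capitals in either orientation (GGAAGT or ACTTCC). Csf1r also has the ETS core in its promoter sequence and no promoter summit, and its sequence is not shown. For Ptprc the more upstream of its 2 TSSs was used.
Ptprc, no promoter summit, chr1:138175306-138175555: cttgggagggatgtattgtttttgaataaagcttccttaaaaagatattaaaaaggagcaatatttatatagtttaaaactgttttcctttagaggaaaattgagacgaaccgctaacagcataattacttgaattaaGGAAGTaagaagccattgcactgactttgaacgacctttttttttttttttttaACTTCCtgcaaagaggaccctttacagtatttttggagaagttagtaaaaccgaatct
Mrc1, no promoter summit, chr2:14229164-14229413: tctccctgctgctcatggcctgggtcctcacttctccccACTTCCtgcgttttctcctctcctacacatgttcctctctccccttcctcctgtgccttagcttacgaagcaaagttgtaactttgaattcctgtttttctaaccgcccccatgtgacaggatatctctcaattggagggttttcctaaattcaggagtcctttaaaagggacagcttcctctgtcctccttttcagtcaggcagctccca
Cd3e, no promoter summit, chr9:45009612-45009861: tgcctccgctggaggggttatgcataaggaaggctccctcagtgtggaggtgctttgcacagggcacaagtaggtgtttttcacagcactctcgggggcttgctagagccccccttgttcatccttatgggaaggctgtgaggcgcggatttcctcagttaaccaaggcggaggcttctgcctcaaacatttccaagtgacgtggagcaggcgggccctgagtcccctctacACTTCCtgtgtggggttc
Lyz2, no promoter summit, chr10:117282273-117282522: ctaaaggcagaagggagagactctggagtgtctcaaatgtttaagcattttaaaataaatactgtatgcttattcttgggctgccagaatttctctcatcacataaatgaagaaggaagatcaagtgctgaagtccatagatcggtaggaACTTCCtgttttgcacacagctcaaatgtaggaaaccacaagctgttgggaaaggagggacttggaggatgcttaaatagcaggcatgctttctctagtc
The stretch before Ptprc held 2 ETS cores, and those before Mrc1, Cd3e and Lyz2 held 1 each. A match of letters is a description and not a bound site.

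Spi1 (Entrez gene 20375) lies on chromosome 2 at 91082405 to 91115759 on the plus strand, with 3 annotated TSSs. Its window held 11 summits, of which 5 were in the gene body. A summit with a score of 3.32 lay in intron 1, 318 bp downstream of the TSS of the RefSeq Select mRNA and 296 bp downstream of the nearest annotated TSS. A summit with a score of 2.15 lay 421 bp downstream of the most upstream TSS, also in intron 1. The gene thus had 2 promoter summits, both with scores below the 8.65 median of promoter summits over all genes. A summit with a score of 3.75 followed 4914 bp downstream of the nearest TSS, in intron 2. The higher scores of the gene body were nearer its 3′ end. A summit in intron 2 had a score of 12.2, and the summit in exon 5 had 15.5. These last summits were nearer to the TSS of Mybpc3, the cardiac myosin-binding protein C gene next to Spi1, at positions −8122 and −2883 bp relative to that TSS. The highest score in the window, 61.5, was at −244 bp from the TSS of Slc39a13, a zinc transporter gene. Psmc3, which encodes a proteasome subunit, had a promoter summit with a score of 4.16.

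Cd68 (Entrez gene 12514) encodes a heavily glycosylated protein of the lysosomes and endosomes of phagocytes. It is a short gene on chromosome 11, at 69664213 to 69666170 on the minus strand. Its promoter summit was at −114 bp from the TSS and had a score of 2.15, which placed it at rank 28201 of 32173. This score is shared by 1670 summits of the list. A summit inside the gene, in intron 4, had a score of 2.92. The other 2 places upstream of the TSS were nearer to Cd68 than to any other gene, both within exons of Eif4a1: exon 11, with a score of 4.16, and exon 5, with 2.15. Cd68 thus had 4 summits of its own, all of low score. The window of Cd68 is crowded, with TSSs of 10 other genes, and 5 of these, Eif4a1, Fxr2, Mpdu1, Senp3 and Tnfsf13, had a promoter summit. The summit at −204 bp from the TSS of Fxr2, which encodes an RNA-binding protein, had a score of 62.5. The summit at −41 bp from the TSS of Eif4a1, a translation initiation factor gene, had 54.7. The promoter summits of Mpdu1 and Senp3 had 23.1 and 17.4. Among the 13 summits in the window, those of broadly used neighbours were the highest.

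**Figure D1:**
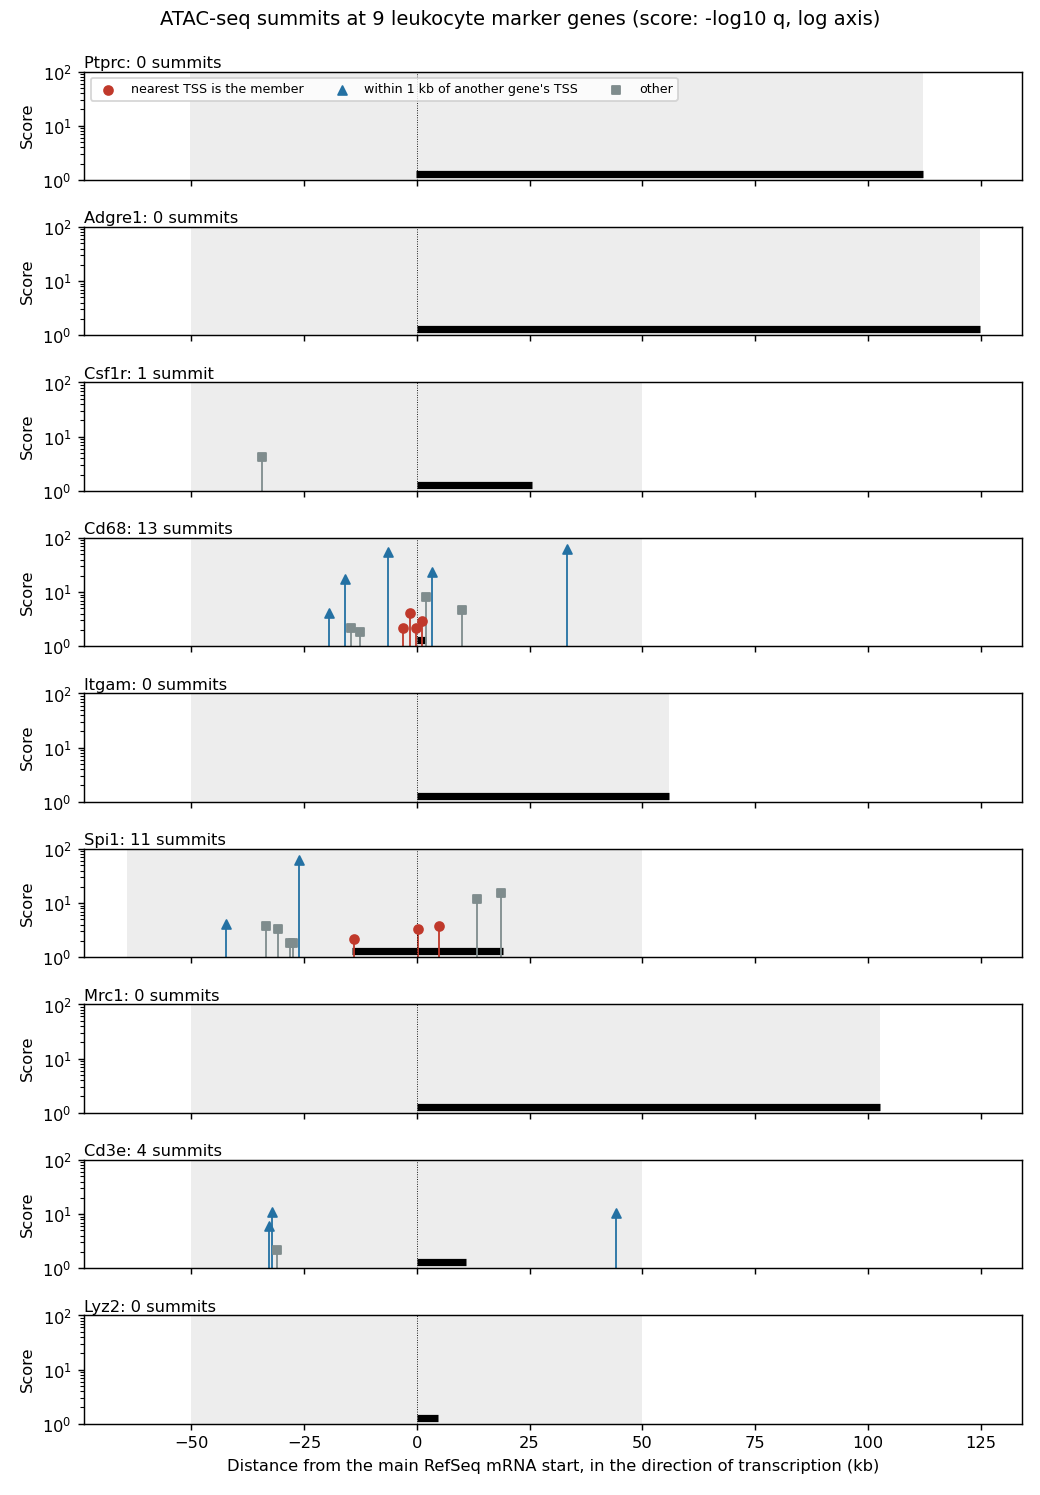
Summits in the windows of the 9 marker genes. The horizontal axis is the distance in kb from the start of the RefSeq Select mRNA in the direction of transcription, the vertical axis the score (−log10 of the q-value, log scale). Grey shading is the window of the rule and the black bar the gene body. Red circles are summits whose nearest TSS is that of the marker gene, blue triangles lie within 1 kb of the TSS of another gene, and grey squares are the rest. Ptprc, Adgre1, Itgam, Mrc1 and Lyz2 have no summit. The 7 red summits score between 2.15 and 4.16, below most blue ones.

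Ptprc (Entrez gene 19264) encodes CD45, the receptor tyrosine phosphatase on the surface of nearly all leukocytes. The gene lies on chromosome 1 at 138062859 to 138175305 on the minus strand. Its window of 162.4 kb held no summit. The nearest summit was 326.4 kb from a TSS, nearest to Nek7, and only 5.64% of all genes had their nearest summit farther away. Ptprc thus lay in a stretch of 1345.6 kb between neighbouring summits.

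Csf1r (Entrez gene 12978) encodes the receptor for CSF1 and IL-34, on which most tissue macrophages depend for survival. It lies on chromosome 18 at 61105572 to 61131139 on the plus strand. The only summit in its window was 34382 bp upstream of the TSS and had a score of 4.16. That summit lay in intron 10 of Pdgfrb, the PDGF receptor gene of mural cells and fibroblasts, so none was in Csf1r itself.

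Adgre1 (Entrez gene 13733) encodes F4/80, the adhesion G protein-coupled receptor used to stain mouse macrophages. It lies on chromosome 17 at 57358686 to 57483529 on the plus strand. No summit was found in its window of 174.8 kb, and the nearest was 83.3 kb from the TSS with a score of 19.1, nearest to Vav1. The stretch without summits around Adgre1 was 1684.6 kb, the longest among the 9 genes.

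Itgam (Entrez gene 16409) encodes CD11b, the integrin alpha chain that pairs with the product of Itgb2 on myeloid cells. It lies on chromosome 7 at 128062640 to 128118491 on the plus strand. Its nearest summit was 58.1 kb from the TSS, near Trim72, with a score of 2.15, and its window held none.

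Mrc1 (Entrez gene 17533) encodes CD206, the mannose receptor of tissue-resident macrophages. It lies on chromosome 2 at 14229414 to 14332023 on the plus strand. Its window of 152.6 kb held no summit, and the nearest, with a score of 15.1 and nearest to Stam, was 155.7 kb from the TSS. Like Ptprc, it had no summit even within 100 kb of a TSS.

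Lyz2 (Entrez gene 17105) encodes lysozyme M, a secreted enzyme that cleaves bacterial cell walls and is made in quantity by macrophages and neutrophils. It lies on chromosome 10 at 117277541 to 117282272 on the minus strand. Its window held no summit, and the nearest was 58.0 kb from the TSS, with a score of 13.4, nearest to Yeats4. Lyz1, its near-identical neighbour, was also without a promoter summit. How reads that map to both copies were treated is not given in the sources used here, so the absence of a summit at Lyz1 and Lyz2 is uncertain.

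Cd3e (Entrez gene 12501) encodes a signalling chain of the T cell receptor complex and marks T cells rather than macrophages. It lies on chromosome 9 at 44998743 to 45009611 on the minus strand. Its window held 4 summits, none in the gene and none nearer than 31.0 kb to its TSS. The highest, with a score of 10.9, was at −730 bp from the TSS of Mpzl2, an epithelial cell adhesion gene, which also had a summit with a score of 6.02 at 47 bp downstream. The summit 55 bp downstream of the TSS of Ube4a, a ubiquitin ligase gene, had 10.7. Cd3d and Cd3g, which encode the other CD3 chains and lie beside Cd3e, had no promoter summit.

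Most summits counted by the rule were nearer to the TSS of a neighbour than to that of a marker gene. Of the 29 summits, 24 were in the windows of Cd68 and Spi1. The nearest TSS was that of a marker gene for 7 summits, 4 at Cd68 and 3 at Spi1, with a median score of 2.92. It was that of another gene for 22 summits, with a median of 5.32. Within 1 kb of the TSS of another gene were 10 summits, with a median of 14.2 and a highest score of 62.5. The median of all 29 was 4.16, beside 5.0 over the whole list, and 9 of the 29 (31.0%) had a score of at least 10, beside 23.5% of all summits. For all of these 9 the nearest TSS was that of another gene, although 2 of them, with scores of 12.2 and 15.5, lay inside the body of Spi1.

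Distances to the nearest summit do not depend on a window. The median distance from a TSS to the nearest summit was 58.0 kb over the 9 genes and 4945 bp over all genes. The median number of summits by the rule was 0 and 2. The 21 other genes with a TSS in a marker window had a promoter summit in 9 cases (42.9%), close to the share of all genes.

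Summit density depended on which marker genes were counted. The union of the 9 windows, 1.11 Mb, held 2.61 summits per 100 kb (exact Poisson interval 1.75 to 3.75), beside 1.88 over the windows of all genes and 1.18 over the chromosomes. Without Cd68 and Spi1 the density was 0.558 per 100 kb (0.181 to 1.3), from 5 summits. The windows of the 5 genes without a summit covered 0.696 Mb, where a count of 0 has an exact Poisson upper bound of 0.53 per 100 kb, or 0.431 by the limit of 3 counts. The density over the 9 windows was therefore set by 2 crowded loci, and those intervals treat summits as independent, which neighbouring summits need not be.

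Other leukocyte genes were counted in the same way, in lists of cell type markers. Of 22 other macrophage and monocyte genes, 3 had a promoter summit: Trem2, a lipid-sensing receptor, with a score of 8.95, Fcer1g, an Fc receptor chain, with 2.15, and Mertk, a receptor for dying cells, with 1.84. The 19 without one included the complement genes C1qa, C1qb and C1qc, the scavenger receptor genes Cd163 and Msr1, and the chemokine receptor genes Cx3cr1 and Ccr2. Of 15 pan-leukocyte genes only Hcls1, a cytoskeletal adaptor gene, had one, with a score of 23.8, and Cd53, Laptm5, Coro1a and Vav1 were among those without. Of 18 T and NK cell genes only Lck, the kinase that starts T cell receptor signalling, had one, with 4.16. None of 8 B cell genes and none of 9 neutrophil, mast cell and eosinophil genes had one, counts of 0 with exact binomial upper limits of 36.9% and 33.6%, or 37.5% and 33.3% by the limit of 3 counts. Together with the 9 marker genes, 7 of 81 leukocyte genes had a promoter summit (8.64%, 3.55 to 17.0%), beside 45.2% of all genes. By the wider rule 49 of the 81 (60.5%) had a summit, beside 72.5%.

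**Figure D2:**
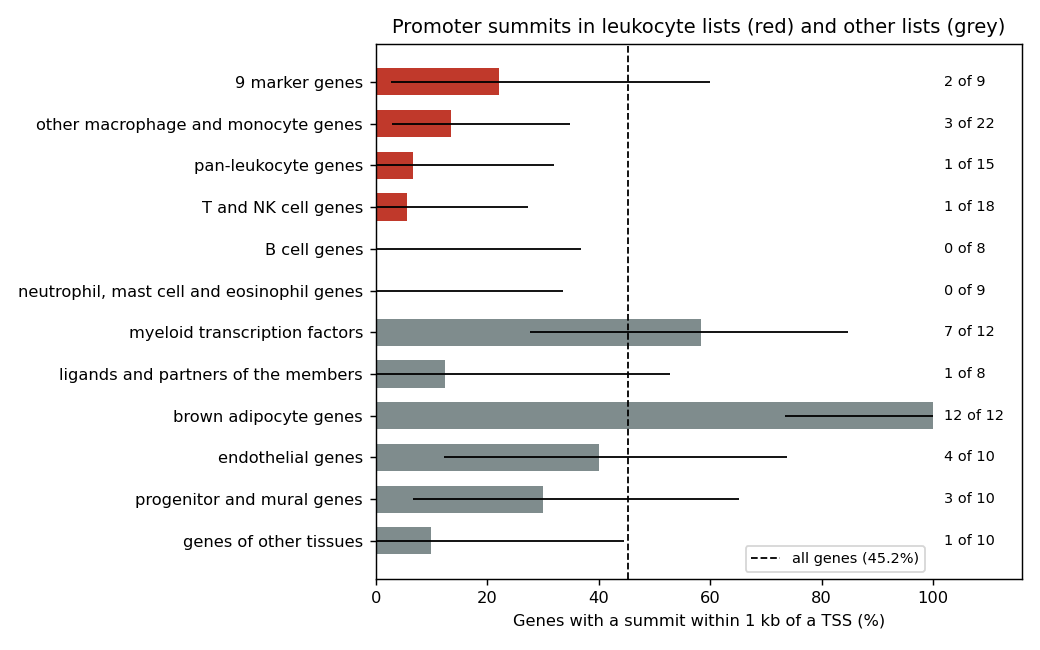
Share of genes with a summit within 1 kb of a TSS, in percent, for lists of leukocyte genes (red) and for other lists (grey). Lines are 95% exact binomial intervals, the dashed line is the share of all genes (45.2%), and the number of genes is at the right. Leukocyte lists lie between 0 and 22.2%, and all 12 brown adipocyte genes have a promoter summit.

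Adipocyte genes and genes of other cell types were counted in the same way, beside 45.2% of all genes with a promoter summit. If the Dot1L-BKO libraries were the control, these summits mark signal above that of the knockout. The counts are therefore no check of which cell types the list reports, which was not tested. The list of brown adipocyte genes also holds Pparg, Adipoq and Fabp4, which the paper uses as markers of adipogenesis in general. All 12 genes of the list had a promoter summit. Among them were Ucp1, the uncoupling protein, with a score of 33.7, Cidea with 61.5, and Lipe, hormone-sensitive lipase, with 84.8. Over the 12 genes the scores had a median of 20 and a range of 6.02 to 84.8. The promoter summits of Cd68 and Spi1, at most 3.32, were below all of these. Endothelial genes, from another stromal cell type of BAT, had a promoter summit in 4 of 10 cases, Cdh5, Flt1, Eng and Cldn5, with scores of 2.59 to 7.54. Progenitor and mural genes had one in 3 of 10 cases, with scores of 2.53 to 4.16. Of 10 genes of other tissues, 1 had one, and Alb of liver and Gfap of astrocytes were among those without.

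**Figure D3:**
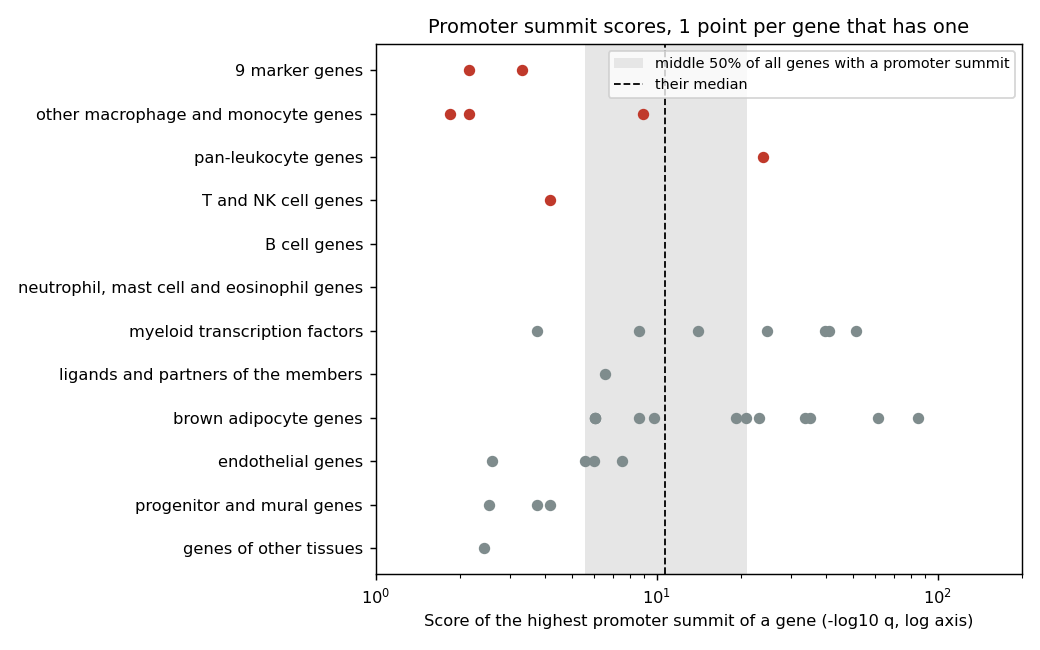
Score of the highest promoter summit of each gene that has one (−log10 of the q-value, log scale), by list, with leukocyte lists in red and other lists in grey. The grey band spans the middle 50% of the same quantity over all 9485 genes with a promoter summit, from 5.55 to 20.9, and the dashed line is their median, 10.7. Cd68 and Spi1 lie left of the band, at 2.15 and 3.32, and of the other leukocyte genes plotted only Hcls1, at 23.8, lies right of the median.

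Transcription factors that work beside PU.1 in myeloid cells were counted as a separate list, since several serve other cell types too. Of 12 such genes 7 had a promoter summit (58.3%, 27.7 to 84.8%), and the 45.2% of all genes lies within this interval. The 12 genes had a median promoter GC content of 65.1%, beside 56.7% over all genes. Scores of at least 10 were reached by 5 of the 12, beside 23.5% of all genes. Among these 5 were Egr1 with 51.0, Cebpb with 41.0, Cebpa with 39.6 and Klf4 with 14.0. Egr2 had 8.65 and Fli1 had 3.75. Cebpa and Cebpb are also regulators of adipocyte differentiation, and Egr1 and Klf4 respond to signals in many cell types. Irf8, Ikzf1, Irf5, Runx1 and Maf had no promoter summit. Irf8, Ikzf1 and Runx1 are the members of this list best known for blood cells.

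Ligands and partners of the marker gene products were also counted. Of 8 such genes 1 had a promoter summit (12.5%), beside 45.2% of all genes. It was Csf1, which encodes a ligand of the Csf1r product, with a score of 6.53 at 292 bp from a TSS. Il34, the gene of the other ligand of that receptor, had none, and its nearest summit was farther than 50 kb away. Itgb2, the partner of Itgam, and Ptpn6, a phosphatase gene of blood cells, had none but had 1 and 2 summits in the gene body. Icam1, which encodes a ligand of the Itgam product, had no promoter summit and 12 summits by the wider rule.

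Promoter base composition differed between the marker genes and the other genes, and was measured from 250 bases before to 50 after each TSS. The median GC content was 50.3% over the 9 genes and 56.7% over all genes, and the median number of CpG pairs was 3 and 14. Promoter summits were less frequent at genes of low GC content over the whole list. They were present at 9.22%, 40.0%, 63.2% and 68.6% of genes from the lowest to the highest quartile of GC content. Of the 9 marker genes 8 were in the lower GC range, up to 56.7%, and of these only Cd68 (12.5%) had a promoter summit, beside 24.6% of all genes of that range. In the lowest quartile alone the order was the other way, with 1 of 4 marker genes, again Cd68, beside 9.22% of all genes. Over the 81 leukocyte genes, 4 of 64 in that range had one (6.25%). In the same range all 6 of the 6 brown adipocyte genes had one. Base composition thus moved with the count of promoter summits, and its part in the counts of the marker genes was not tested.

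**Figure D4:**
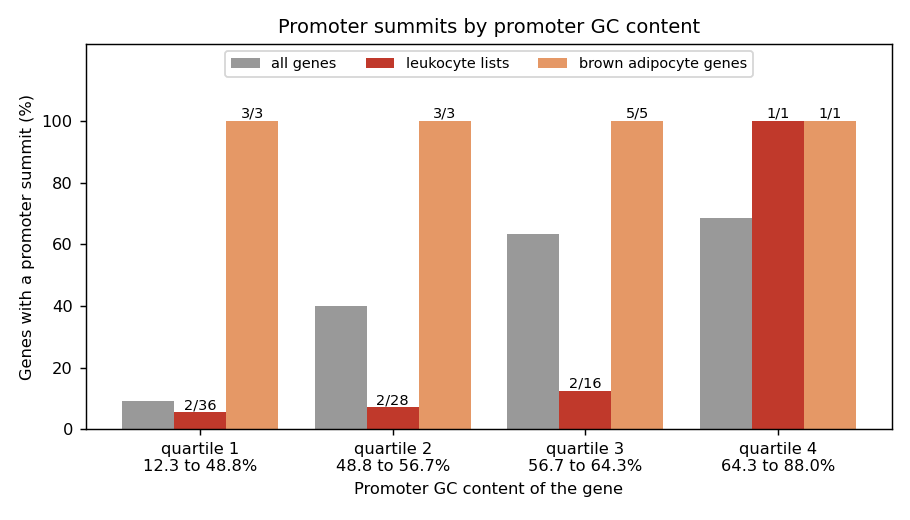
Share of genes with a promoter summit, in percent, by quartile of promoter GC content, for all genes (grey), for the 81 leukocyte genes (red) and for 12 brown adipocyte genes (orange). Numbers over the bars are genes with a promoter summit of genes in the quartile. In the lowest 3 quartiles the red bars, at 5.56, 7.14 and 12.5%, lie below the grey ones and the orange bars are at 100%.

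Short sequence patterns of factors that act at leukocyte genes were searched on both strands within 100 bp of the 29 summits and of all summits. The ETS core GGAAGT was within 5 of the 29 windows (17.2%, 5.85 to 35.8%) and within 13.9% of all windows. Within 50 bp the order turned, with 3.45% beside 7.47%. The longer PU.1 letters GAGGAAGT, which contain the ETS core, were within 2 (6.90%, 0.846 to 22.8%) and 1.46%. Both of these summits were nearer to another gene, Mpdu1 and Senp3. The intervals of these counts hold the shares of all summits, and no difference was detectable with 29 windows. AP-1 letters were within 3 windows (10.3% beside 6.40%), RUNX letters TGTGGT within 6 (20.7% beside 12.9%), SP/KLF letters within 9 (31.0% beside 20.6%) and E-box letters CANNTG within 13 (44.8% beside 58.4%). C/EBP letters TTGCGCAA and the IRF motif were within none of the 29, beside 0.146% and 1.35%. Among the 7 summits nearest to a marker gene, none had the ETS core or the PU.1 letters and 1, at the Cd68 promoter, had AP-1 letters.

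The promoters themselves gave another picture of ETS letters. The ETS core was in the promoter sequence of 7 of 9 marker genes, all but Adgre1 and Itgam, beside 27.7% of all genes. The full PU.1 letters were in none of the 9, beside 3.56%. AP-1 letters were at Csf1r and Cd68, beside 8.06%, RUNX letters at Lyz2 alone, beside 16.9%, and the IRF motif at Adgre1 alone, beside 4.21%. SP/KLF letters were in 4 of 9, beside 51.3% of all genes. E-box letters were in 8 of 9, beside 71.7%. Of the 7 marker genes with the ETS core in the promoter, 2, Cd68 and Spi1, had a promoter summit, and these were the only such genes among all 9. The share of all genes with the ETS core that had a promoter summit is not given here. No link between the letters and the summits can therefore be read from this count. Genes with several TSSs had several promoter windows, 3 for Spi1 and 2 for Ptprc, which raises their chance of a match.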

How the data were processed

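ATAC-seq libraries of 2 WT and 2 Dot1L-BKO mice were made by the authors with the Nextera kit. The submitters' processing notes name bcl2fastq 2.2, CASAVA, cutadapt 1.2.1, BWA, MACS2 2.1.1 and mm10. The deposited list holds 1 position per MACS2 peak and a score, the −log10 of the q-value, made by the authors from the 4 libraries keeping q-values up to 0.05 and at least 2.0-fold enrichment. Transposase shift and the handling of multi-mapped and mitochondrial reads are not given in the sources used here. RNA-seq libraries were not analysed here, and 0 columns of other samples were left out.

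Summits were placed on the RefSeq annotation of GRCm38.p6 by Entrez gene and symbol with Python 3.11.15, pandas 2.3.3, scipy 1.17.1 and pyfaidx 0.9.0.4, and the script was tested on simulated summits. GC content and motifs came from the genome. Intervals are 95% exact binomial or Poisson, floors are 3 counts, and both cover counting error only. Named genes were the 9 markers with their promoter and highest summits, the list genes with or without a promoter summit, and the neighbours of the highest summits. Other neighbouring genes were named after their values were seen. The members and lists were chosen with earlier results of these data known. Values of some list genes are not reported here.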

Additional observations from a re-analysis of the deposited data

How the results depend on the processing

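The counts depended on the score minimum and on the window. With a score of at least 5, the marker windows held 11 summits, 0 genes had a promoter summit (all genes 36.1%), 0 summits were nearest to a marker TSS, and the density was 0.991 per 100 kb (chromosomes 0.591). With a score of at least 10 these were 9, 0 (all genes 23.5%), 0 and 0.811 (chromosomes 0.278). The 29 summits became 12 within 10 kb, 52 within 100 kb, 6 in gene bodies and 7 by nearest TSS. When promoters spanned 1 kb before and 100 bp after a TSS, 1 gene had a promoter summit, Cd68 (all genes 35.2%). The ETS core share was 3.45% within 50 bp, below the 7.47% of all summits, and 37.9% within 200 bp, above their 24%. Leaving out Cd68 and Spi1, a choice made after seeing the data, gave 0.558 per 100 kb. The other 10 of 26 alternatives, among them a score of at least 2, merged summits, mRNA models and promoter windows of 500 bp and 5 kb, changed a count by less than 1.5 times or kept the value within its interval.

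No paired analysis was possible because no value is tied to a library, and leaving out single replicates was not run, since it needs such values. A gene without a summit passed no threshold of the peak caller at an unknown depth, which does not show closed chromatin in leukocytes of this tissue.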

Other observations

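The ETS cores of the printed Ptprc, Mrc1, Cd3e and Lyz2 stretches were read again with their flanks, after the sequences were seen. The letters CAGGAAGT, on either strand, were in the promoter sequence of 5 of the 9 marker genes (55.6%), Ptprc, Spi1, Mrc1, Cd3e and Lyz2. They were in 14 of the 72 other leukocyte genes (19.4%) and in 821 of 21000 genes (3.91%). None of the 12 brown adipocyte genes, 10 endothelial genes, 10 progenitor and mural genes or 12 myeloid transcription factor genes had them. Among leukocyte lists, none of the 9 neutrophil, mast cell and eosinophil genes had them either, and of 10 genes of other tissues 1, Gfap, had them. Of the 22 other macrophage and monocyte genes 4 had these letters (18.2%), C1qb, Clec10a, Folr2 and Lyz1. Pan-leukocyte genes with them were Itgb2, Ptpn6, Hcls1, Lsp1 and Was, T cell genes were Cd247, Lck and Il7r, and B cell genes were Cd79a and Blk. Since the letters were picked from the marker genes themselves, their share there is no finding. Of the 5 marker genes with these letters, only Spi1 had a promoter summit. The matching share over all genes with these letters is not given here, so this count is a description only.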
